A study of Mus musculus with 3 samples.

Results

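Fyn, Tec and Cbl encode 3 intracellular proteins that act next to the T cell receptor (TCR), and their transcripts were followed here in mouse thymocytes. The members were named in advance of this description from their ratios in the same arrays, so their values are given as a description without a test. They are 3 of 6795 genes with a probe of 1 gene symbol, and they were read by 4 of 9596 probes, 1 each for Fyn and Tec and 2 for Cbl. On each of 3 spotted 2-colour arrays, total RNA from sorted CD69hi thymocytes of wild-type B6 mice (C57BL/6) met RNA from Zap70-/- thymocytes that had not been separated. The sample titles call this second RNA CD69lo, although the descriptions name no sort for it. CD69 is a surface protein that thymocytes raise after a TCR signal, and Zap70 is the kinase without which that signal stops early, so thymocytes of Zap70-/- mice rarely develop past the CD4+CD8+ stage. Genotype, sorting and cell stage all differ between the RNAs and cannot be told apart. The labels give no age, no sex and no statement that the arrays came from separate mice, so any spread between arrays may be technical.

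The TCR itself has no kinase activity. Src family kinases, in thymocytes Lck and Fyn, phosphorylate its CD3 and zeta chains. Zap70 docks on these and phosphorylates the adaptors LAT and SLP-76, and kinases of the Tec family then activate phospholipase C-gamma. Cbl, a RING-type ubiquitin ligase, binds phosphorylated kinases through its N-terminal domain and ends signalling by ubiquitination; in mice without Cbl, thymocytes carry more TCR on their surface. The 3 members thus stand for an initiating kinase, an amplifying kinase and a brake.

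Each ratio is the deposited log value for a probe, taken as log2 and turned so that a positive value means more transcript in CD69hi RNA than in Zap70-/- RNA. The dye on CD69hi RNA was Cy3 for arrays 1 and 2 and Cy5 for array 3, so values of the first pair were multiplied by -1. The direction is likely but is not stated by the submitters. It assumes ratios of Cy5 over Cy3, and under it Rag1, the recombinase gene of immature thymocytes, was lower in CD69hi RNA (log2 ratio -1.19 ± 0.36, SD, n = 3, limma adjusted p = 0.035), though it missed the threshold when array 1 (adjusted p = 0.13) was left out, and likewise array 2 (adjusted p = 0.18). Dntt, the terminal transferase of the same stage, was at -1.05 ± 0.71 (adjusted p = 0.12). The opposite reading would turn every sign below. It would leave these two-sided p-values the same, so they do not bear on the direction. The values hold ratios only, so neither the level of a gene in one RNA nor the absence of a marker could be read from them. Cd69 and Zap70 themselves were not analysed here, so sort and deletion were not checked.

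Fyn transcript was more abundant in CD69hi RNA on all 3 arrays. Array 1 gave a log2 ratio of 1.39, array 2 gave 1.65 and array 3 gave 1.68. The values span 0.30, and the array with swapped dyes lies next to array 2. The mean was 1.57 ± 0.16 (SD, n = 3), a level 2.98-fold higher in CD69hi RNA than in Zap70-/- RNA. Of all genes, 97.1% had a mean ratio smaller in size, whichever way the ratios run, and in the direction used here Fyn stood at rank 115 from the top (from the bottom if the direction were turned). Its SD was below the median SD of all genes, 0.26. Fyn associates with the TCR complex, whereas Lck is held by the coreceptors CD4 and CD8. The single Fyn probe is annotated to the gene and not to the T cell or brain form, which are spliced from the same gene.

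Tec, the kinase that gave its family its name, had the opposite sign on each array. Array 1 gave a log2 ratio of -1.84, array 2 gave -1.76 and array 3 gave -1.18. The mean of -1.59 ± 0.36 (SD, n = 3) corresponds to a level 3.01-fold lower in CD69hi RNA than in Zap70-/- RNA. In size it exceeded 97.3% of genes in either direction, and it stood at rank 74 from the bottom in the direction used here (from the top if turned). The ratio was smaller in size where CD69hi RNA carried Cy5, at 2.26-fold lower on array 3 against 3.58-fold and 3.38-fold lower on arrays 1 and 2. In naive T cells of mice Tec is scarce, and it is induced by activation.

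Cbl also lay below 0 on every array, and its probes gave nearly the same ratio. Probe 646542_1 read -1.27 on array 1, -1.24 on array 2 and -0.70 on array 3, with a mean of -1.07 ± 0.32 (SD, n = 3). Probe 647749_1 read -1.37 on array 1, -1.22 on array 2 and -0.92 on array 3, with a mean of -1.17 ± 0.23 (SD, n = 3). The probes' means differed by 0.10, less than either SD. In the 576 genes with 2 probes the median difference was 0.21, and 27.4% of these genes had a smaller one than Cbl. Averaged over both probes, Cbl had a log2 ratio of -1.12 ± 0.27 (SD, n = 3), a level 2.17-fold lower in CD69hi RNA than in Zap70-/- RNA, and in either direction it was larger in size than 94.5% of genes.

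**Figure D1:**
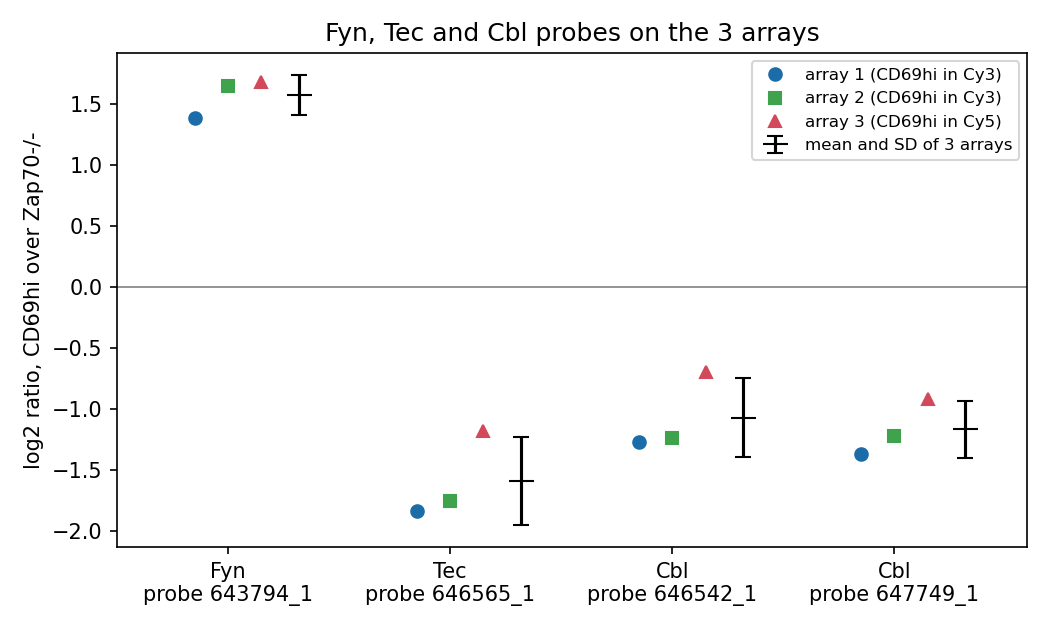
Log2 ratio of CD69hi over Zap70-/- RNA (vertical axis) for the 4 probes of Fyn, Tec and Cbl; coloured symbols are the 3 arrays and the black bar is their mean with SD. The Fyn points lie between 1.39 and 1.68, and every point of Tec and of both Cbl probes lies below 0, with array 3 nearest to 0 for Tec and Cbl.

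The 250 bases before the start of each gene are shown from RefSeq (GRCm38.p6), because Tec and Cbl had ratios of one sign and Fyn of the other; the arrays hold no measurement on these windows. Capitals mark GGGCGG, the GC box bound by Sp1, on either strand.
Fyn, chr10:39369549-39369798 (plus strand): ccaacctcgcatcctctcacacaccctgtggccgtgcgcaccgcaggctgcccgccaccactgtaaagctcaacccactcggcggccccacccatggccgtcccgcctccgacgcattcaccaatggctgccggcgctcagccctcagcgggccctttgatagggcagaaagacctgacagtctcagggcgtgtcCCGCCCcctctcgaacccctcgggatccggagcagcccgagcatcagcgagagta
Tec, chr5:72868449-72868698 (minus strand): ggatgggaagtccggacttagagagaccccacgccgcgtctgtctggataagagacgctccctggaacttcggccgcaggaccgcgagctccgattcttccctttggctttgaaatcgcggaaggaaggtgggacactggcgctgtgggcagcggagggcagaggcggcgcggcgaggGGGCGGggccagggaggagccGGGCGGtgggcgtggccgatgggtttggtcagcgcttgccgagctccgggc
Cbl, chr9:44234047-44234296 (minus strand): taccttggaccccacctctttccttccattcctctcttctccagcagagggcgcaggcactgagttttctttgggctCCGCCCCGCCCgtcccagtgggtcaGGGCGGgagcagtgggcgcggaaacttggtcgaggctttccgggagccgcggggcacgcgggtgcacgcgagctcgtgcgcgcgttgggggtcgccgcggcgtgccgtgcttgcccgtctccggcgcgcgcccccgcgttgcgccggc

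All 3 windows were rich in G and C, with 67.2% for Fyn, 68.4% for Tec and 71.6% for Cbl, above 86.5%, 88.4% and 92.7% of the 32851 windows in the table. GGGCGG occurred 1 time before Fyn, 2 times before Tec and 3 times before Cbl, where 2 of the matches share a base, and it occurred in 32.7% of all windows. CCAAT was found 1 time before Fyn and not before Tec or Cbl, against 33.8% of all windows. None of the 3 held TATAAA (12.4% of all windows), the AP-1 site TGANTCA (6.75%) or the E-box CANNTG (66.2%). All motifs were searched on both strands, and the CCAAT before Fyn lies apart from its GC box.

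The ratios of Tec and Cbl, and not that of Fyn, were nearest to 0 on array 3. Array 3 exceeded the mean of arrays 1 and 2 by 0.62 for Tec, by 0.47 for Cbl and by 0.17 for Fyn. A shift toward 0 on array 3 was also seen for 178 of the 215 genes with a mean of -1 or lower, whose median shift was 0.695, so Tec and Cbl shared this with most genes that were lower in CD69hi RNA. Of the 252 genes with a mean of 1 or higher, 99 were smaller in size on array 3, with a median shift of 0.13. With both dye orientations weighted equally, the ratios were 1.60 for Fyn, -1.49 for Tec and -1.04 for Cbl.

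**Figure D2:**
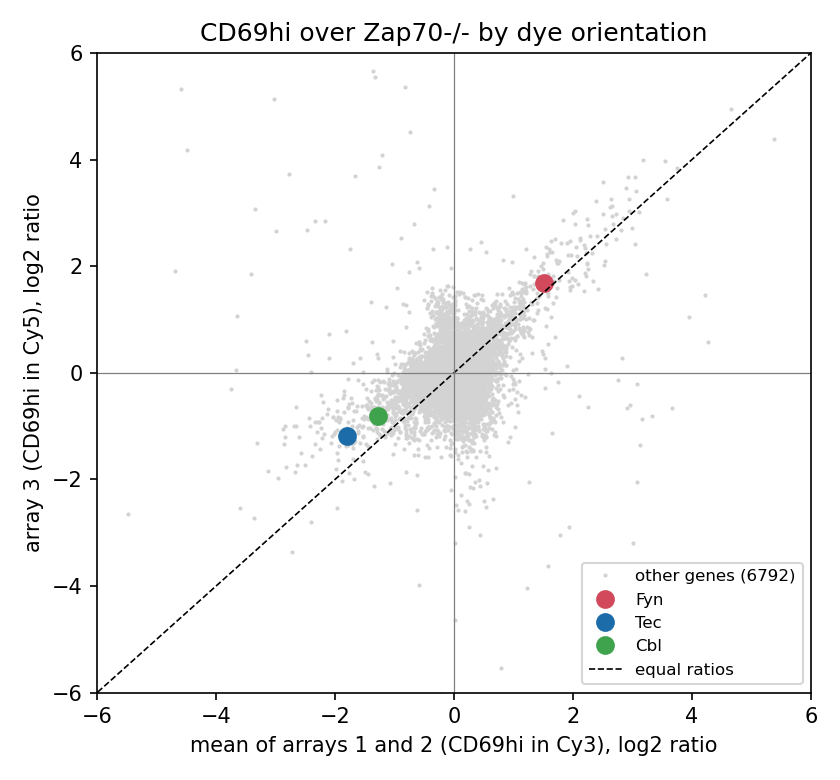
Each point is a gene, with the mean log2 ratio (CD69hi over Zap70-/-) of arrays 1 and 2, where CD69hi RNA carried Cy3, on the horizontal axis and that of array 3, where it carried Cy5, on the vertical axis; 6 genes lie outside the axes. Fyn lies close to the dashed line of equal ratios in the upper right, and Tec and Cbl lie in the lower left above that line.

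No measured relative had a mean ratio as far from 0 as the member of its family. The members were named from their ratios in these arrays, so this comparison favours them and is only a description. Of the other genes listed, 3 of 8 in the Src family and 3 of 4 in the Tec family were measured. Among the other Src family kinases measured, the widely expressed Src had a log2 ratio of 0.59 ± 0.94 (SD, n = 3, limma adjusted p = 0.41), with 0.58 on array 1, 1.53 on array 2 and -0.35 on array 3. Blk, the B lymphoid member, was at 0.03 ± 0.32 (adjusted p = 0.92) and Frk, an epithelial relative, at 0.08 ± 0.09 (adjusted p = 0.75). None of these 3 passed, and all 3 had smaller means than Fyn. Lck was not analysed here. Of the genes that control Src kinases, 0 of 3 passed limma, where 6.94% of all 8905 features passed. All 3 reached an unadjusted p of at most 0.05, as did 23.4% of all features. Csk, the kinase that phosphorylates their inhibitory tail, had a ratio of 0.61 ± 0.33 (adjusted p = 0.12), and the phosphatase Ptpra was at -0.57 ± 0.25 (adjusted p = 0.11).

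In the Tec family, Txk rose in CD69hi RNA. The arrays gave log2 ratios of 0.67, 0.69 and 0.69, a mean of 0.68 ± 0.02 (SD, n = 3), or 1.61-fold higher, with a limma adjusted p of 0.046. Txk, also called Rlk, is a T cell kinase that is anchored by palmitoylation in place of the lipid-binding domain of Tec. It is next to Tec among the protein-coding genes of chromosome 5 in the RefSeq gene table (GRCm38.p6), so neighbouring relatives had ratios of opposite sign. The gene on the other side of Tec, Slain2, a microtubule protein, was at 0.12 ± 0.10 (adjusted p = 0.63). Btk, the kinase of B cells and myeloid cells, was at 0.05 ± 0.40 (adjusted p = 0.90) and Bmx, a kinase of endothelial and myeloid cells, at -0.04 ± 0.77 (adjusted p = 0.96), and both had values on either side of 0. The Txk call ended without array 1, 2 or 3 (adjusted p = 0.23, 0.38 and 0.052) and with the arrays scaled to a common spread (adjusted p = 0.055).

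Cblb, the second Cbl ligase of T cells which sets their need for CD28 costimulation, read 0.10, 0.30 and 0.51 on arrays 1 to 3. Its mean of 0.30 ± 0.20 (SD, n = 3) did not pass (limma adjusted p = 0.29), and its sign was opposite to that of Cbl on every array. Among 6 relatives and partners of Cbl, 0 passed, beside 6.94% of all features. At an unadjusted limma p of at most 0.05 the count was 1 of the 6, beside 23.4% of all features. That one was Sla2, an adaptor of the SLAP type that recruits Cbl to the TCR, with -5.27 on array 1, -1.46 on array 2 and -2.73 on array 3. Its mean of -3.15 ± 1.94 was further from 0 than that of any member, but with this spread it did not pass (adjusted p = 0.082), except without array 2 (adjusted p = 0.031). Syk, the relative of Zap70, was at -0.22 ± 0.15 (adjusted p = 0.40).

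**Figure D3:**
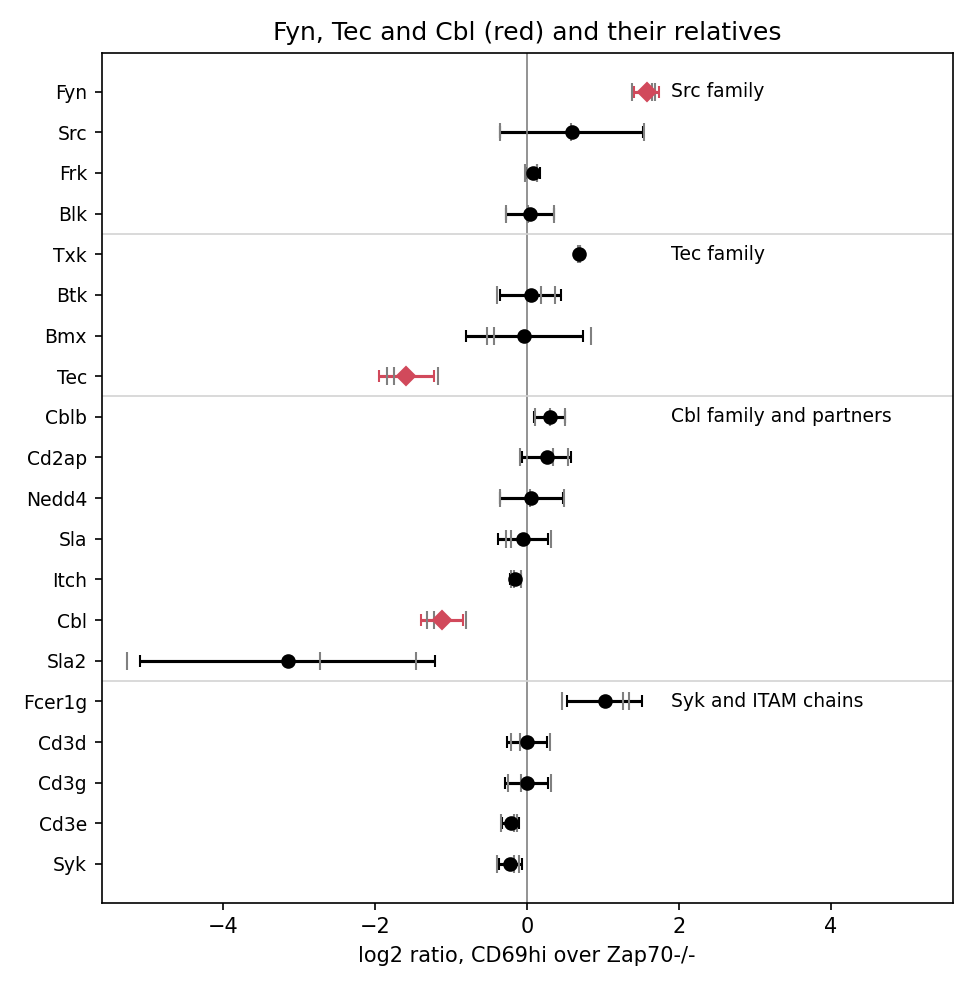
Log2 ratio of CD69hi over Zap70-/- RNA (horizontal axis) for Fyn, Tec and Cbl (red diamonds) and the measured relatives and partners (black circles), grouped by family; bars are the SD over 3 arrays and grey ticks the single arrays. Fyn and Tec lie outside the range of their relatives, and Sla2 has the lowest mean and the widest spread.

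Across the rest of the proximal pathway few transcripts passed the adjusted threshold. Of 92 other genes listed 44 were measured, of which 2 rose and 0 fell in CD69hi RNA (limma, Benjamini-Hochberg adjusted p at most 0.05), which is 4.55%, beside 6.94% of all 8905 features. By direction, 4.13% of all features rose and 2.81% fell. At an unadjusted p of at most 0.05 the order was the other way, with 18 of the 44 (40.9%) beside 23.4% of all features. Of these 18, 11 were higher (25% of the 44, beside 12% of all features) and 7 lower (15.9%, beside 11.4%). Neither difference in share was tested. The median ratio of the 44 genes was 0.04, beside 0.01 for all features. Leaving out any 1 array ended both calls, and Lax1 did not pass without array 1 (adjusted p = 0.19), array 2 (adjusted p = 0.31) or array 3 (adjusted p = 0.053).

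Beside Txk the riser was Lax1, a membrane adaptor that dampens antigen receptor signalling, with a log2 ratio of 0.74 ± 0.13 (SD, n = 3, limma adjusted p = 0.046). Arrays 1 to 3 read 0.65, 0.68 and 0.88. It was the 1 of 10 adaptors that passed, beside 6.94% of all features. At an unadjusted limma p of at most 0.05 the count was 6 of the 10, beside 23.4% of all features. The median ratio of the 10 adaptors was -0.28, and 4 of them had a ratio above 0. Of 10 downstream effectors 0 passed (6 at an unadjusted p of at most 0.05, reached by 23.4% of all features). Their largest moderated statistics belonged to Rasgrp1, the exchange factor that activates Ras in thymocytes (0.69 ± 0.16, adjusted p = 0.059), and to Inpp5d, the lipid phosphatase SHIP-1 (0.61 ± 0.23, adjusted p = 0.090). Of 4 phosphatases 0 passed (0 at an unadjusted p of at most 0.05), beside the same shares of all features. They were led by Ptpn2 (0.32 ± 0.12, adjusted p = 0.24) and Acp1 (-0.30 ± 0.27, adjusted p = 0.33).

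Of Syk and the signalling chains with immunoreceptor motifs, 0 of 5 passed, beside 6.94% of all features. At an unadjusted limma p of at most 0.05 the count was 1 of the 5, beside 23.4% of all features. The CD3 chain gene Cd3e, a substrate of the Src kinases, was at -0.21 ± 0.11 (SD, n = 3, limma adjusted p = 0.40). Fcer1g, the signalling chain of Fc receptors in myeloid and innate lymphoid cells, was at 1.02 ± 0.49 (adjusted p = 0.070).

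**Figure D4:**
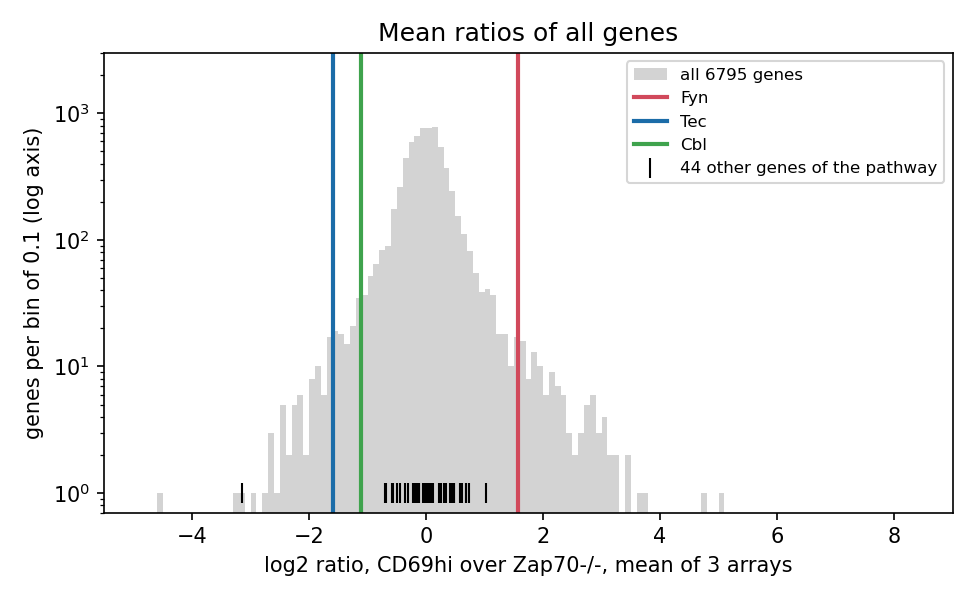
Histogram of the mean log2 ratio (CD69hi over Zap70-/-) of all 6795 genes in bins of 0.1, with the number of genes on a log axis; coloured lines mark Fyn, Tec and Cbl and black ticks the 44 other genes of the pathway. The members lie in the tails at 1.57, -1.59 and -1.12, and the pathway genes have a median of 0.04.

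Markers of other cell types also differed between the RNAs. Of 10 macrophage and dendritic cell markers 7 rose and 0 fell by limma, beside 4.13% and 2.81% of all features, and 9 reached an unadjusted p of at most 0.05, beside 23.4%. The markers had list medians of 1.26, 1.70 and 1.41 on arrays 1, 2 and 3. Lyz2 (lysozyme) was at 2.51 ± 0.08 (SD, n = 3) and C1qa, a complement subunit, at 2.23 ± 0.09. This list therefore had the sign of Fyn, Txk, Lax1 and Fcer1g. Of 6 granulocyte markers 0 rose and 1 fell, S100a8 at -0.86 ± 0.27 (adjusted p = 0.049), and this call ended without array 1, 2 or 3. At an unadjusted limma p of at most 0.05 the count was 5 of the 6, beside 23.4% of all features. All 6 lay below 0, between -1.98 and -0.31, with list medians of -1.03, -1.39 and -0.56 on arrays 1, 2 and 3, the sign of Tec and Cbl. Among 5 markers of natural killer and innate-like cells Klrk1 rose (0.91 ± 0.13) and Gzma fell (-2.29 ± 0.94), and neither passed without array 1 or array 2. All 5 reached the unadjusted threshold, and 4 of them had ratios above 0. No marker passed in the lists of 5 B cell, 2 erythroid, 5 stromal and 6 thymocyte genes (limma, with 3, 1, 1 and 1 at the unadjusted threshold). The 6 thymocyte markers ranged from -1.13 (Cd8a) to 0.06 (Thy1). Median ratios were 0.63 for the natural killer and innate-like list, 0.35 for B cell and 0.31 for erythroid markers. They were -0.06 for stromal and -0.11 for thymocyte markers. Sharing a sign with a member was thus not particular to the macrophage or granulocyte list. The part of these other cells in the ratios of Fyn, Tec and Cbl was not tested.

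The genes with ratios most like those of each member were found by Euclidean distance over the 3 arrays. For Fyn these were Cd82, a tetraspanin, at a distance of 0.033, Nfatc1, Gata3, Tgfbi and, at 0.15, the macrophage marker Aif1. The nearest gene to Tec was Serinc5, at 0.10, followed by Nfatc3, Hsdl1, Palm and Agtrap, the last at 0.23. Cbl lay nearest to Pold1, at 0.12, and then to Tubb2b, Rfx2, Ccnb2 and Pole, at 0.16. Of the calcium-regulated NFAT factors named here, Nfatc1 was at 1.57 ± 0.21 and Nfatc3 at -1.53 ± 0.23 (SD, n = 3 each). With 3 arrays of a single comparison, such likeness says only that the 3 ratios were of similar size. Traf3ip2, the neighbour of Fyn in the RefSeq gene table, was at -0.08 ± 0.09 (limma adjusted p = 0.75), and the neighbours of Cbl were not analysed here.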

How the data were processed

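The submitters deposited 1 log ratio per probe and array, which is taken here as log2. The sources used here give neither the base nor any background correction, filter or normalization. The deposited values reach -9.40, beyond a scanner's range as log10, but a natural logarithm is possible, and fold changes would then be larger. Dim spots could not be set aside without intensities, and the number of arrays, 3, limits the precision. Before turning, Pearson's r across probes was 0.61 for arrays 1 and 2, -0.25 for 1 and 3 and -0.40 for 2 and 3 (probes are not independent replicates).

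Of 9596 probes, 7486 had 1 symbol, 483 several and 1627 none in the platform annotation; 7395 matched the RefSeq table by Entrez identifier. Averaging per symbol gave 8905 features. Spotted cDNA probes can bind related transcripts, so values within kinase families are uncertain. In R 4.3.3, limma 3.58.1 fitted 1 coefficient per feature (lmFit, eBayes, 2 residual degrees of freedom), with two-sided p-values adjusted over all features by Benjamini-Hochberg and called at 0.05. The fit was also run on simulated independent values without dye or array effects, which is no evidence for the calls made here. The members, the 92 pathway genes and the marker lists were chosen with earlier results of these data known; Cd5 and Cd6 are not among them. Genes named are the members, measured family relatives, up to 4 called genes per direction in each other list (where none was called, the 2 with the largest moderated t), neighbours, the 5 nearest genes per member, the leading called markers, and Rag1 and Dntt for the direction.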

Additional observations from a re-analysis of the deposited data

How the results depend on the processing

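Over 6 other settings, the log2 ratio ran from 1.52 to 1.67 for Fyn. It ran from -1.80 to -1.47 for Tec and from -1.27 to -1.02 for Cbl. All stayed within 1 SD of the reported mean, but leaving out 1 of 3 arrays or weighting the dyes equally cannot move it further. These ranges are therefore a description and no test of the ratios. With array 3 left unturned, an alternative chosen after seeing the data, the ratios were 0.45 for Fyn, -0.81 for Tec and -0.58 for Cbl, and 0 features rose, 0 fell and 0 pathway genes rose; by construction the swapped array then cancels the others. Leaving out 1 array gave between 95 and 283 features higher, 24 and 409 lower, 0 and 0 pathway genes higher, and 0 and 1 lower (Sla2, without array 2); these fits have fewer arrays, and without array 3 dye and RNA cannot be told apart. A dye term gave 562 features higher and 514 lower, and Csk then passed (adjusted p = 0.038). With scaling 1 pathway gene, Lax1, rose. S100a8 and Gzma did not pass with scaling (adjusted p = 0.066 and 0.052). Of 7 other settings tested per gene, unturned ratios aside, Txk passed in 3 (adjusted p from 0.039 to 0.38) and Lax1 in 4 (from 0.035 to 0.31). The 3 arrays form 1 group, and each log ratio already pairs both RNAs within its array, so no further pairing was modelled.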
